A study of Homo sapiens with 20 samples.

Results

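HMOX1, the gene of the inducible haem oxygenase, was followed together with 9 genes of haem breakdown and iron handling in HCT116 cells, an established human colorectal carcinoma line. The 10 genes are among 15531 listed in the deposited tables. HMOX1 was chosen because its level in these libraries was graded by compound, so its values are a description and carry no test. Its 9 partners were chosen by function: the constitutive haem oxygenase HMOX2, the biliverdin reductases BLVRA and BLVRB, the haem-binding repressor BACH1, the ferritin chains FTH1 and FTL, the transferrin receptor TFRC, the cytosolic aconitase ACO1 and the iron exporter SLC40A1. All 10 were listed at 12 h and 9 at 5 h, where SLC40A1 was not. The cells had received chaetocin, chetomin, MeS-chaetocin or MeS-chetomin at 500 nM, or DMSO at 0.5%, for 5 h or for 12 h, and no other agent or genotype is given for any group. Chaetocin and chetomin are fungal metabolites with disulfide bridges, and the labels describe the MeS compounds as analogs depleted of sulfide. Each of the 10 groups held 2 libraries labelled as biological replicates, 20 in all. The labels do not say whether replicates came from separate cultures on separate days, so p-values measure the spread between these libraries.

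Haem oxygenases open the haem ring and release iron, carbon monoxide and biliverdin, which biliverdin reductases turn into bilirubin. The freed iron is stored in ferritin, a shell of heavy and light chains, or leaves the cell through ferroportin, while the transferrin receptor brings iron in. BACH1 represses HMOX1 and both ferritin genes at sites shared with NRF2 and small MAF proteins, and lets go when it binds haem. A second layer acts on the messenger RNAs: when iron is low, iron regulatory proteins, of which ACO1 without its iron-sulfur cluster is a member, bind a stem-loop that blocks translation when it lies in a 5′ UTR and slows decay when it lies in a 3′ UTR.

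The stem-loop is what joins the ferritin, ferroportin and transferrin receptor genes in this set, so it is shown here for FTL, SLC40A1 and TFRC. A search of 19922 protein-coding genes of GENCODE release 29 (GRCh38) used a bulged C, 5 bases, the loop CAGTG followed by a base other than G, and 5 bases that pair with the first 5, with G-T pairs allowed, on the transcribed strand only. It was found in the 5′ UTR of 12 genes, or 0.06%, and in the 3′ UTR of 93, or 0.467%, and 0.914% of genes held it anywhere. FTL, FTH1 and SLC40A1 each held 1 in the 5′ UTR, and TFRC held 4 in the 3′ UTR. Only 3 genes, or 0.015%, held more than 1 in the 3′ UTR, and 4 was the most in any gene. The 6-base loop is in capitals in the following 29-base sequences, which run 5′ to 3′ on the transcribed strand. The FTL element lies on the plus strand at chr19:48965335-48965363, in a gene of 4 exons that spans chr19:48965301-48966878. The SLC40A1 element lies on the minus strand at chr2:189580661-189580689. Those of TFRC lie on the minus strand at chr3:196050979-196051007, chr3:196050575-196050603, chr3:196050510-196050538 and chr3:196050463-196050491, in this order along the transcript.
FTL 5′ UTR: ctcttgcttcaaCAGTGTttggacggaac
SLC40A1 5′ UTR: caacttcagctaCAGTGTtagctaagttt
TFRC 3′ UTR, element 1: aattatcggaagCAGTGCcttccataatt
TFRC 3′ UTR, element 2: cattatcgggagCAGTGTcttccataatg
TFRC 3′ UTR, element 3: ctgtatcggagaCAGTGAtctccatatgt
TFRC 3′ UTR, element 4: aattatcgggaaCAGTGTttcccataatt
A match is a description of the letters; binding was not measured.

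The values are normalized signals that the authors deposited per library, and they summed to between 875371 and 1170802 in a library. Effective depth could be recovered for 10 libraries, at 25.63 to 39.84 M reads, and is unknown for the others. DMSO replicate 1 at 5 h stood apart, with 20.29% of its summed signal in its top 10 genes, against 9.42% to 17.29% elsewhere. Of 11 epithelial markers 7 were listed, with a summed signal of 3257 to 5487 over the libraries, most of it from keratins. CDX2, an intestinal transcription factor among them, had 3.11 and 3.17 in chaetocin and 3.64 and 2.4 in chetomin libraries at 12 h, against 14.2 and 13.7 in DMSO, and fell by 1.85 and 1.91 on the log2(value + 1) scale (limma adjusted p = 0.00113 and 0.00148). CDX2 was also called lower with both at 5 h. KRT19 fell by 0.82 with chaetocin and CDH1 by 0.81 with chetomin at 12 h (adjusted p = 0.013 and 0.0187), and both calls were lost when group means were set to the authors' mean CPM. KRT20 rose by 0.39 with chaetocin at 12 h (limma adjusted p = 0.0319), a call kept on that scale (adjusted p = 0.02). Of 7 markers tested at 12 h, 1 was called higher and 2 lower with chaetocin, where 20.2% of all genes were higher and 26.8% lower. With chetomin 0 were higher and 2 lower, where 15.6% of all genes were higher and 20.2% lower. Low signal of other cell types moved with the intact compounds: the macrophage markers CD14, CD68 and CD163 summed to 13.4 and 9.87 in chaetocin and 10.3 and 10.6 in chetomin libraries at 12 h, against 1.49 and 1.57 in DMSO, with 3 of 6 listed and PTPRC not among them. The red cell genes HBA1 and HBA2, listed without HBB (2 of 5), summed to 200.3 and 181.1 in chaetocin and 25.0 and 26.9 in chetomin libraries at 12 h, against 3.48 and 4.02 in DMSO. At 5 h the macrophage sums were 7.67 and 4.38 in chaetocin and 5.5 and 4.5 in chetomin libraries, against 0.32 and 0.86 in DMSO, and the red cell sums 46.7 and 54.3 in chaetocin and 11.9 and 14.9 in chetomin libraries, against 5.05 and 2.8 in DMSO. The endothelial markers CDH5, PECAM1 and VWF, 3 of 3 listed at 12 h and none at 5 h, summed to 3.9 and 4.33 in chaetocin and 2.07 and 1.87 in chetomin libraries, against 0.04 and 0.08 in DMSO. ALB, the 1 listed of 4 liver markers, had 3.2 and 4.31 in chaetocin and 5.13 and 4.87 in chetomin libraries at 12 h, against 0.0 in both DMSO libraries. COL1A1, the 1 listed of 4 fibroblast markers, had 4.64 and 4.04 in chaetocin and 4.24 and 6.18 in chetomin libraries at 12 h, against 5.36 and 9.06 in DMSO. The part of these markers in the results was not tested. Comparisons of a time share their DMSO libraries. In bulk RNA, fewer cells of a type and less RNA per cell cannot be told apart. Differences between groups below are on the log2(value + 1) scale, and a gene is called where its limma p, adjusted over all genes of the comparison, is under 0.05. Where libraries of groups are said to lie apart, the share of all genes that separate likewise was not counted. Such a separation is a description and is not read as particular to these genes.

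HMOX1 was the most graded gene of the set: it was high with chetomin and chaetocin, a little above DMSO with MeS-chaetocin, and near DMSO with MeS-chetomin. At 5 h, HMOX1 had a normalized value of 284 and 328 in chaetocin, 977 and 963 in chetomin, 46.4 and 50.2 in MeS-chaetocin and 17.3 and 19.85 in MeS-chetomin libraries, against 15.1 and 16.7 in DMSO. At 12 h, HMOX1 had 1108 and 1069 in chaetocin, 1501 and 1472 in chetomin, 39.2 and 38.2 in MeS-chaetocin and 19.4 and 20.4 in MeS-chetomin libraries, against 19.8 and 24.8 in DMSO. The libraries of a group lay close together at both times, no group overlapped another at 5 h, and at 12 h the only overlap was that of MeS-chetomin with DMSO. The gene spans chr22:35380361-35394214 on the plus strand of GRCh38 and has 5 exons.

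**Figure D1:**
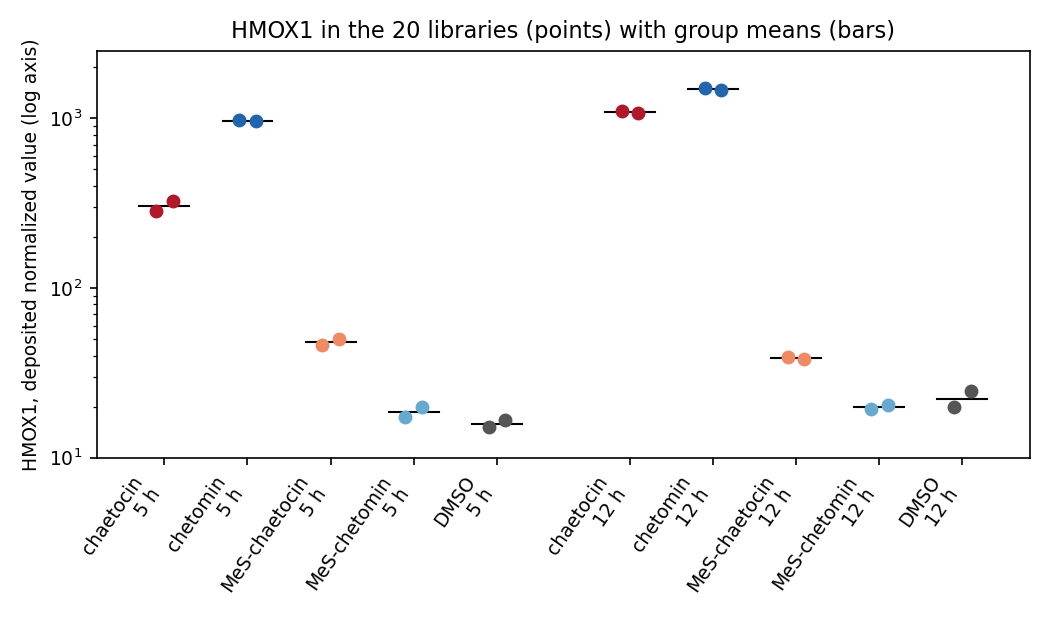
HMOX1 in each library (points) with the group mean (bars), as the deposited normalized value on a log axis, for the 4 compounds and DMSO at 5 h and 12 h. Chetomin stands highest at both times, chaetocin closes on it by 12 h, and MeS-chetomin lies at the level of DMSO.

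In ratios of group means, chaetocin stood at 19.3 times and chetomin at 61.1 times DMSO at 5 h, MeS-chaetocin at 3.04 times and MeS-chetomin at 1.17 times. At 12 h the ratios to DMSO were 48.8 for chaetocin, 66.6 for chetomin, 1.73 for MeS-chaetocin and 0.891 for MeS-chetomin. Taking the lowest and highest ratio that the 2 libraries a side allow, the 12 h values run from 43.0 to 55.9 for chaetocin, 59.3 to 75.7 for chetomin, 1.54 to 1.98 for MeS-chaetocin and 0.78 to 1.03 for MeS-chetomin. The ranges of the 2 intact compounds do not meet at 12 h, and at 5 h they lie further apart, at 17.0 to 21.7 for chaetocin and 57.7 to 64.8 for chetomin.

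Both intact compounds stood above their sulfide-depleted analogs. Chaetocin stood at 6.34 times MeS-chaetocin at 5 h and 28.1 times at 12 h, and chetomin at 52.2 and 74.7 times MeS-chetomin. The analogs themselves differed, with MeS-chaetocin above MeS-chetomin in every library of each time. Between the intact compounds, the log2 difference of chaetocin minus chetomin was −1.66 at 5 h, and the ratio of chetomin to chaetocin was 3.17 at 5 h and 1.37 at 12 h. Over time, chaetocin libraries at 12 h stood at 3.56 times those at 5 h and chetomin libraries at 1.53 times, against 1.4 times in DMSO. MeS-chaetocin went the other way, with 0.801 of its 5 h mean at 12 h. Values at 5 h and 12 h were deposited separately, and their scaling is not named. A scale difference between the times would enter these ratios over time.

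HMOX2, which encodes the constitutive haem oxygenase, was lower with both intact compounds on the deposited scale. The balance of the pair shifted mostly by HMOX1, at 48.8 times DMSO with chaetocin and 66.6 times with chetomin at 12 h. The HMOX2 means at 12 h were 44.6 and 47.7, against 83.3 in DMSO. At 12 h, HMOX2 had a value of 47.5 and 41.6 in chaetocin, 48.0 and 47.3 in chetomin, 87.3 and 98.5 in MeS-chaetocin and 71.6 and 73.1 in MeS-chetomin libraries, against 71.3 and 95.4 in DMSO. Every intact-compound library lay below every other library of that time. HMOX2 fell by 0.88 on the log2 scale with chaetocin (SE 0.18, limma adjusted p = 0.00982) and by 0.78 with chetomin (SE 0.19, adjusted p = 0.0146) against DMSO. Against its own analog it fell by 1.04 with chaetocin (adjusted p = 0.00202), a call kept in each of 13 alternative fits with adjusted p up to 0.0427, and by 0.59 with chetomin (adjusted p = 0.0173), a call lost when group means were set to the authors' mean CPM (adjusted p = 0.234). The call against MeS-chetomin was also lost with median-of-ratios scaling and without any 1 of the 4 libraries of that pair. In the limma refit on the authors' CPM scale the falls against DMSO were not called either (adjusted p = 0.0559 with chaetocin and 0.0809 with chetomin). The authors' own deposited q for these falls was 0.00257 with chaetocin and 0.0039 with chetomin. At 5 h, HMOX2 had 72.4 and 84.2 in chaetocin, 74.7 and 70.5 in chetomin, 128.9 and 88.3 in MeS-chaetocin and 95.5 and 106.3 in MeS-chetomin libraries, against 128.7 and 98.5 in DMSO. Both intact groups lay below DMSO already at 5 h, with log2 differences of −0.52 with chaetocin (adjusted p = 0.126) and −0.63 with chetomin (SE 0.18, adjusted p = 0.0498), and the chetomin call was lost at a pseudocount of 0.1 and without either chetomin library.

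Taking the deposited values as length-scaled, which the headers do not state, HMOX1 made up 95.9% and 96.3% of the summed signal of both oxygenase genes in chaetocin libraries at 12 h and 96.9% in each chetomin library. The shares were 31.0% and 28.0% with MeS-chaetocin and 21.3% and 21.8% with MeS-chetomin, against 21.8% and 20.7% in DMSO. At 5 h the shares were 79.7% and 79.6% with chaetocin and 92.9% and 93.2% with chetomin, against 10.5% and 14.5% in DMSO. HMOX2 was thus the larger part of the pair in DMSO and with both analogs, and HMOX1 with both intact compounds. HMOX1 itself is in these shares, so they are a description with no test.

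Of the biliverdin reductases at 12 h, BLVRA was lower with both intact compounds and BLVRB overlapped DMSO. BLVRA, the main reductase of adult biliverdin, had 17.3 and 19.4 in chaetocin, 24.5 and 25.3 in chetomin, 31.7 and 30.6 in MeS-chaetocin and 34.0 and 34.9 in MeS-chetomin libraries at 12 h, against 35.9 and 36.8 in DMSO. The groups lay in this order without any overlap. BLVRA fell by 0.95 on the log2 scale with chaetocin (SE 0.16, limma adjusted p = 0.00434) and by 0.53 with chetomin (SE 0.17, adjusted p = 0.0448) against DMSO, and by 0.73 (adjusted p = 0.00289) and 0.45 (adjusted p = 0.0208) against their own analogs. On the authors' CPM scale none of these 4 calls was kept, with adjusted p from 0.0534 to 0.774. Against DMSO the authors' own deposited q was 0.00115 with chaetocin and 0.246 with chetomin. At 5 h BLVRA ran from 19.02 to 23.5 in chaetocin and chetomin libraries, against 29.2 and 24.3 in DMSO, and was not called. MeS-chetomin libraries also lay below DMSO at 5 h, at 21.1 and 19.5, and MeS-chaetocin libraries had 33.3 and 21.3. Chetomin differed from MeS-chetomin at 5 h by 0.03 (limma adjusted p = 0.915), so a low BLVRA at that time was not particular to the intact compounds.

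BLVRB, the reductase that also reduces flavins, had 102.7 and 105.5 in chaetocin, 103.5 and 112.0 in chetomin, 140.9 and 121.6 in MeS-chaetocin and 72.6 and 64.0 in MeS-chetomin libraries at 12 h, against 71.9 and 109.4 in DMSO. Its highest group was MeS-chaetocin, and both intact groups overlapped the wide spread of DMSO. At 5 h BLVRB had 87.4 and 100.5 in chaetocin, 94.5 and 98.4 in chetomin, 90.5 and 78.5 in MeS-chaetocin and 77.6 and 74.6 in MeS-chetomin libraries, against 86.7 and 64.2 in DMSO. Both intact groups lay above DMSO at 5 h, by 0.33 and 0.37 on the log2 scale, without passing the limma test (adjusted p = 0.331 and 0.217). Against DMSO at 12 h the authors' deposited q for BLVRB was 0.0362 with chaetocin and 0.0431 with chetomin. By limma BLVRB was called in 1 comparison, where it rose by 0.65 on the log2 scale with chetomin against MeS-chetomin at 12 h (SE 0.20, adjusted p = 0.0292). That call was lost without any 1 of the 4 libraries of this pair. The ratio of BLVRB to BLVRA was 5.94 and 5.43 in chaetocin, 4.23 and 4.42 in chetomin, 4.45 and 3.98 in MeS-chaetocin and 2.14 and 1.83 in MeS-chetomin libraries at 12 h, against 2.0 and 2.97 in DMSO. MeS-chaetocin thus stood at the level of chetomin.

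BACH1, the repressor of HMOX1 and ferritin, was at a low level and was called in none of the 16 comparisons by limma, nor in the authors' deposited table. At 5 h BACH1 had 1.61 and 1.35 in chaetocin, 2.76 and 3.64 in chetomin, 2.1 and 4.0 in MeS-chaetocin and 5.29 and 5.74 in MeS-chetomin libraries, against 2.15 and 4.35 in DMSO. The chaetocin libraries were the lowest, with a log2 difference of −0.73 from DMSO (95% interval −1.45 to −0.01, adjusted p = 0.177), and of −0.44 on the authors' CPM scale (adjusted p = 0.475). At 12 h BACH1 had 4.01 and 4.34 in chaetocin and 3.81 and 4.37 in chetomin libraries, inside the 6.31 and 2.83 of DMSO. The log2 differences at 12 h were −0.03 with chaetocin (95% interval −0.83 to 0.77) and −0.06 with chetomin (−0.82 to 0.70), with the DMSO libraries far apart.

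The ferritin chains were the partners whose levels were most like those of HMOX1 across the libraries. FTL, the light chain, had 2875 and 2862 in chaetocin, 3181 and 3401 in chetomin, 2126 and 2048 in MeS-chaetocin and 1435 and 1379 in MeS-chetomin libraries at 12 h, against 1453 and 1634 in DMSO. Chetomin, chaetocin and MeS-chaetocin stood in this order above DMSO, as they did for HMOX1, and MeS-chetomin lay just below DMSO. FTL rose by 0.90 on the log2 scale with chaetocin (SE 0.14, limma adjusted p = 0.00336) and by 1.09 with chetomin (SE 0.18, adjusted p = 0.00339). The differences were larger when group means were set to the authors' mean CPM, at 1.25 with chaetocin (adjusted p = 0.000439) and 1.40 with chetomin (adjusted p = 0.000358). Both calls were lost without either library of the intact compound, with adjusted p up to 0.128 for chaetocin and 0.145 for chetomin, and kept without either DMSO library.

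FTL also separated intact compounds from analogs. It rose by 0.46 with chaetocin against MeS-chaetocin (SE 0.12, adjusted p = 0.0176), a call lost with the replicate number as a block and without any 1 of the 4 libraries of the pair. It rose by 1.22 with chetomin against MeS-chetomin (SE 0.13, adjusted p = 0.000486), and this call was kept in each of 13 alternative fits. MeS-chaetocin itself stood 0.44 above DMSO (95% interval 0.04 to 0.84), which did not pass the adjusted test (adjusted p = 0.786). At 5 h FTL had 1955 and 2304 in chaetocin, 2197 and 2246 in chetomin, 2368 and 1667 in MeS-chaetocin and 1434 and 1389 in MeS-chetomin libraries, against 1802 and 1466 in DMSO. Both intact groups were above DMSO, by 0.38 and 0.45 on the log2 scale, without passing the test, and FTL rose by 0.65 with chetomin against MeS-chetomin (SE 0.17, adjusted p = 0.0218), a call lost with the spread shared by all libraries and without any 1 of the 4 libraries of that pair, with adjusted p up to 0.168.

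FTH1, the heavy chain with the ferroxidase centre, had 5145 and 4568 in chaetocin, 5829 and 6332 in chetomin, 5088 and 4171 in MeS-chaetocin and 2892 and 2669 in MeS-chetomin libraries at 12 h, against 2934 and 3851 in DMSO. Chetomin was the highest, while chaetocin and MeS-chaetocin overlapped. FTH1 rose by 0.85 on the log2 scale with chetomin against DMSO (SE 0.22, adjusted p = 0.0185) and by 1.13 against MeS-chetomin (SE 0.17, adjusted p = 0.00213), and the call against MeS-chetomin was kept in each of 13 alternative fits with adjusted p up to 0.049. With chaetocin the difference from DMSO was 0.53 (SE 0.18, adjusted p = 0.0522), and 0.91 on the authors' CPM scale (adjusted p = 0.00398). From MeS-chaetocin, chaetocin differed by 0.07 (adjusted p = 0.762), and by 0.54 on the CPM scale, where it was called (adjusted p = 0.0238). At 5 h FTH1 lay between 4501 and 4891 in chaetocin and chetomin libraries, against 4184 and 3153 in DMSO, and was not called.

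The ratio of heavy to light chain signal was 1.79 and 1.6 in chaetocin, 1.83 and 1.86 in chetomin, 2.39 and 2.04 in MeS-chaetocin and 2.02 and 1.94 in MeS-chetomin libraries at 12 h, against 2.02 and 2.36 in DMSO. Every intact-compound library had a lower ratio than any DMSO or analog library, with MeS-chetomin at or just under the lower DMSO library, and the difference was not tested. GENCODE lists 41 pseudogenes of the ferritin chains, 25 of FTH1 and 16 of FTL, and 7 of them are in the tables. How reads were split among these copies is not stated in the sources used here, so ferritin values are uncertain to that extent.

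**Figure D2:**
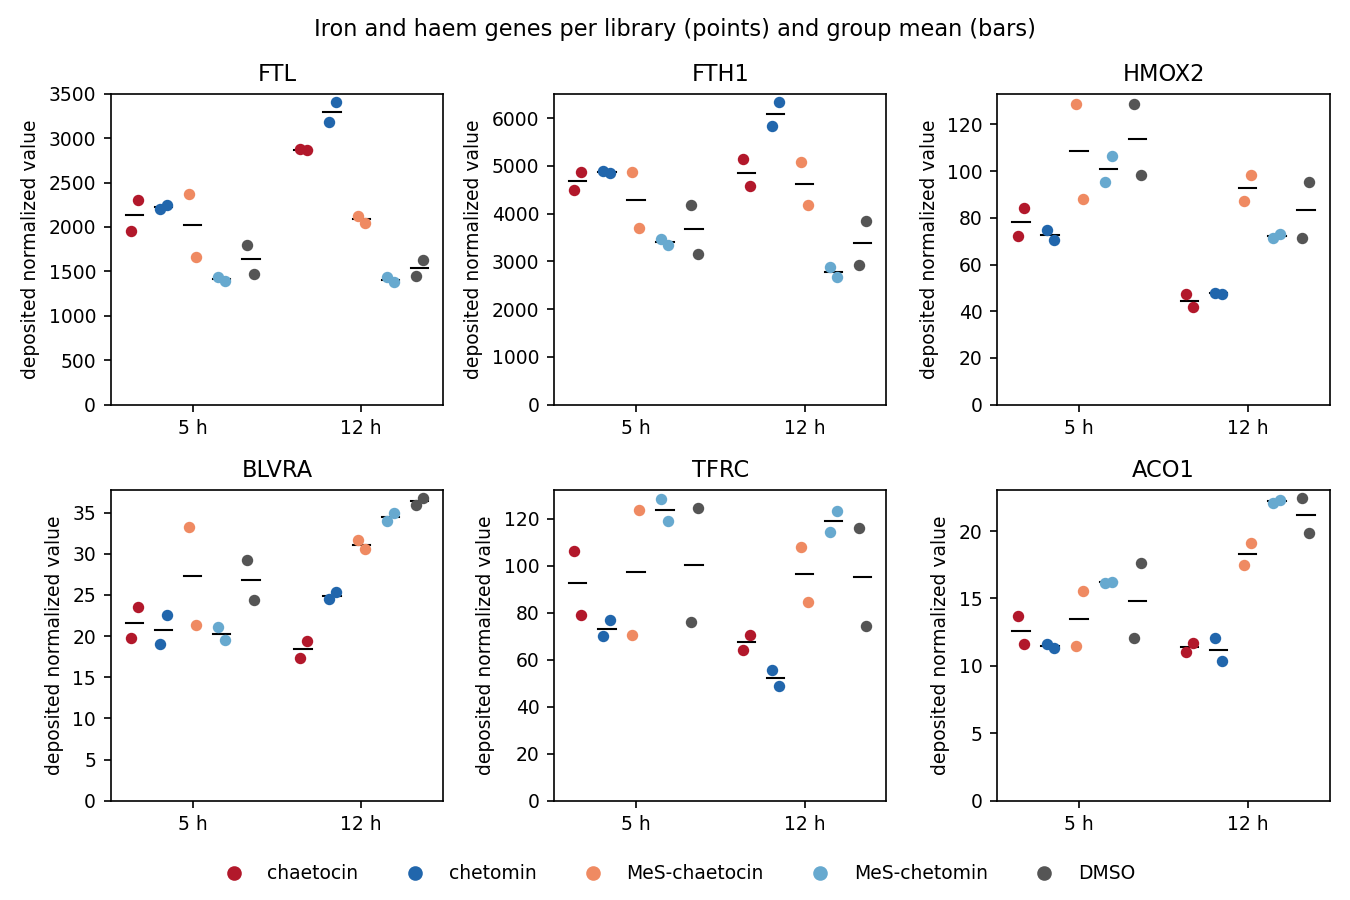
Deposited normalized values of FTL, FTH1, HMOX2, BLVRA, TFRC and ACO1 in each library (points) with group means (bars) at 5 h and 12 h; each axis starts at 0. At 12 h the chaetocin and chetomin libraries lie above DMSO for FTL and FTH1 and below it for HMOX2, BLVRA, TFRC and ACO1. How many of all genes separate in this way was not counted.

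TFRC, the receptor that takes up transferrin-bound iron, had 64.2 and 70.65 in chaetocin, 55.7 and 48.8 in chetomin, 108.2 and 84.6 in MeS-chaetocin and 114.6 and 123.3 in MeS-chetomin libraries at 12 h, against 115.9 and 74.4 in DMSO. Both intact groups lay below every other library, although the DMSO libraries were far apart. TFRC fell by 0.82 on the log2 scale with chetomin against DMSO (SE 0.22, limma adjusted p = 0.0238), a call lost on the CPM scale (−0.47, adjusted p = 0.134), and by 1.17 against MeS-chetomin (SE 0.20, adjusted p = 0.00389), where it was kept on that scale (adjusted p = 0.0119). The call against MeS-chetomin was lost without either chetomin library. With chaetocin the difference from DMSO was −0.46 (SE 0.22, adjusted p = 0.132), and on the CPM scale it was −0.04 (adjusted p = 0.902). For TFRC against DMSO the authors' own deposited q was 0.736 with chaetocin and 0.00709 with chetomin. From MeS-chaetocin, chaetocin differed by −0.50 (adjusted p = 0.0952), and the sign turned on the CPM scale, at 0.21 (adjusted p = 0.446). At 5 h TFRC ran from 69.9 to 106.15 in chaetocin and chetomin libraries and from 76.3 to 124.5 in DMSO, and it fell with chetomin against MeS-chetomin by 0.75 (SE 0.21, adjusted p = 0.0301), a call lost without any 1 of the 4 libraries of that pair. This 5 h call was also lost with median-of-ratios scaling, on the CPM scale, with the spread shared by all libraries and with the length trend removed. The ratio of TFRC to FTL at 12 h was 0.0223 and 0.0247 in chaetocin, 0.0175 and 0.0143 in chetomin, 0.0509 and 0.0413 in MeS-chaetocin and 0.0799 and 0.0894 in MeS-chetomin libraries, against 0.0798 and 0.0455 in DMSO. Every intact-compound library had a lower ratio than any DMSO or analog library, and the difference was not tested. TFRC has a transcript of 5111 bases and FTL of 878. For all genes over 4000 bases the median difference at 12 h was −0.51 with chaetocin and −0.49 with chetomin. For those under 1000 bases it was 0.1 and 0.27. The part of length in this ratio was not tested.

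ACO1, which is an aconitase with an iron-sulfur cluster and an RNA-binding protein without it, had 11.1 and 11.7 in chaetocin, 12.1 and 10.3 in chetomin, 17.5 and 19.1 in MeS-chaetocin and 22.1 and 22.3 in MeS-chetomin libraries at 12 h, against 22.5 and 19.9 in DMSO. All 4 intact-compound libraries lay below the other 6. ACO1 fell by 0.84 on the log2 scale with chaetocin (SE 0.17, limma adjusted p = 0.0102) and by 0.86 with chetomin (SE 0.21, adjusted p = 0.0155) against DMSO, and by 0.64 (adjusted p = 0.00973) and 0.93 (adjusted p = 0.00355) against their analogs. Only the last of these held in the limma refit on the authors' CPM scale (adjusted p = 0.0172). Their own deposited q against DMSO was 0.00122 with chaetocin and 0.000161 with chetomin.

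SLC40A1, ferroportin, was near the floor and listed at 12 h only, with 0.12 and 0.42 in chaetocin, 0.34 and 0.35 in chetomin, 0.55 and 1.12 in MeS-chaetocin and 0.79 and 0.7 in MeS-chetomin libraries, against 0.63 and 0.68 in DMSO. The intact-compound libraries were all below the rest. SLC40A1 stood below the analogs, by 0.52 with chaetocin and by 0.38 with chetomin, and its differences from DMSO were −0.39 and −0.30. Limma called both differences from the analogs and neither from DMSO. Its higher values lie in the DMSO and analog groups, through which a low gene comes to be listed. The authors' mean CPM was 1.57 in DMSO, against 0.51 with chaetocin and 1.04 with chetomin. These calls are therefore a description and are not read as a test. The values lie near 0, where the log2(value + 1) scale shrinks a change, and both calls were lost with median-of-ratios scaling. The authors' deposited table gives a log2 fold change of −1.62 with chaetocin (q = 0.000965) and of −0.60 with chetomin (q = 0.213), under the same limit.

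Counted together against DMSO at 12 h, chaetocin changed 4 of the 9 partners, 1 higher and 3 lower, where limma called 47.0% of all genes tested, 20.2% higher and 26.8% lower. Chetomin changed 6 of 9, 2 higher and 4 lower, where 35.8% of all genes were called, 15.6% higher and 20.2% lower. On the deposited scale the chaetocin share is near that background and the chetomin share above it, with 9 genes. With median-of-ratios scaling chetomin changed 3 of 9, where 4955 of 15381 genes were called. On the authors' CPM scale it changed 2 of 9, where 5021 of 15381 were called. The chetomin share was therefore near or below that of all genes on those scales. The authors' deposited table gives q under 0.05 for 7 of 9 with chaetocin, SLC40A1 among them, against 60.3% of all genes, and for 6 of 9 with chetomin, against 53.4%. At 5 h, chaetocin changed 0 of 8 partners by limma, with 2 at an unadjusted p under 0.05 and 0 in the authors' deposited table, where limma called 11.1% of all genes and their table called 29.5%. Of all genes, 3908 of 14217 had a limma p under 0.05 before adjustment. Chetomin changed 1 of 8 at 5 h, HMOX2, where 15.7% of all genes were called, and the authors' deposited table gives q under 0.05 for BLVRB (0.0314) and FTL (0.0303) in its place, against 31.2% of all genes. Leaving out either chaetocin library at 12 h took all 4 calls, and leaving out either chetomin library all 6. Calls over all genes dropped in the same fits, to 1633 and 1638 without a chaetocin library, against 7230 with all libraries, and to 882 and 987 without a chetomin library, against 5503. Leaving out DMSO replicate 1 at 12 h took the FTH1 call with chetomin, and without DMSO replicate 2 the counts were 7 for each compound.

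The analogs changed 0 partners at either time by limma, where 0.0% of all genes were called for MeS-chaetocin at 5 h and at 12 h, 0.141% for MeS-chetomin at 5 h and 0.0% for it at 12 h. At an unadjusted p under 0.05 there were 2 with MeS-chaetocin at 12 h, FTL and BLVRB, where 756 of 15215 genes were under it. There were 0 in the other 3 comparisons. Genes under it there were 105 of 14178 for MeS-chaetocin and 2290 of 14184 for MeS-chetomin at 5 h, and 416 of 15197 for MeS-chetomin at 12 h. The authors' deposited table gives 0 in all 4, against 0.0494% of all genes for MeS-chaetocin and 0.162% for MeS-chetomin at 5 h, and 0.243% and 0.0658% at 12 h. This does not show that the analogs left the genes at the level of DMSO: for FTH1 with MeS-chaetocin at 12 h the interval of the log2 difference reached from −0.12 to 1.02.

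**Figure D3:**
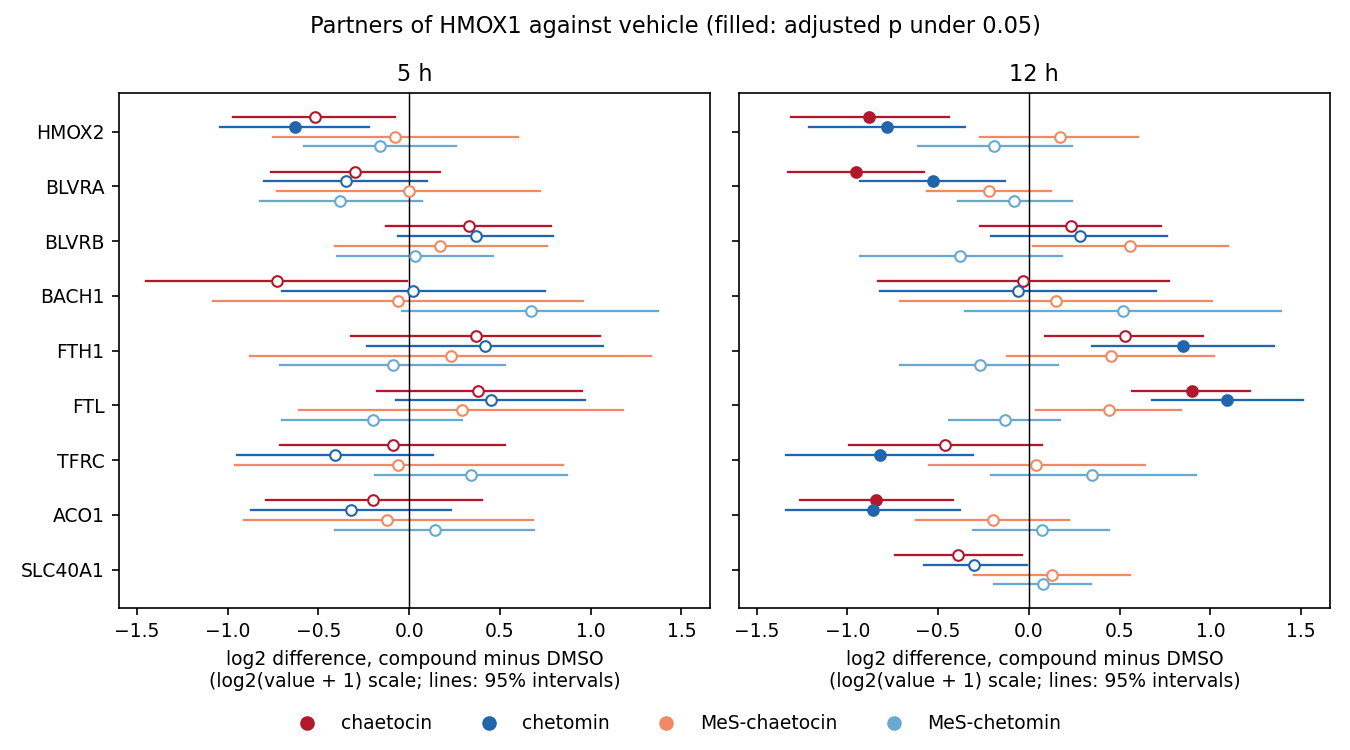
Log2 difference from DMSO of the 9 partners of HMOX1 with each compound at 5 h (left) and 12 h (right), on the log2(value + 1) scale, with 95% intervals as lines; filled points have a limma adjusted p under 0.05. Filled points are those of chaetocin and chetomin, with FTL and FTH1 to the right of 0 and HMOX2, BLVRA, TFRC and ACO1 to the left.

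Set against its analog at 12 h, chaetocin changed 5 of 9 partners, FTL higher and HMOX2, BLVRA, ACO1 and SLC40A1 lower, where 53.8% of all genes were called, 22.2% higher and 31.6% lower. Chetomin changed 8 of 9 against MeS-chetomin, where 47.4% of all genes were called, 18.8% higher and 28.6% lower: FTL, FTH1 and BLVRB were higher, and TFRC, ACO1, HMOX2, BLVRA and SLC40A1 lower. SLC40A1 is in both counts, under the limit given above. With a mean value of at least 1, where it was not tested, the counts were 4 of 8 for chaetocin and 7 of 8 for chetomin. Over all genes 7075 of 13174 and 6376 of 13012 were then called. The chaetocin count was 2 without either chaetocin library and without MeS-chaetocin replicate 2, and the chetomin count was 4 without any 1 of the 4 libraries of its pair. At 5 h the counts were 0 of 8 for chaetocin by limma (0 at an unadjusted p under 0.05, against 3214 of 14221 genes), where 6.56% of all genes were called, and 2 of 8 for chetomin, FTL and TFRC, where 32.8% were called.

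Between the intact compounds no partner passed the test. Chaetocin against chetomin gave 0 called of 8 at 5 h and 0 of 9 at 12 h by limma, where 0.767% and 4.67% of all genes were called. At an unadjusted p under 0.05, where 1791 of 14220 and 3235 of 15381 genes stood, there was 1 partner at each time. These were BACH1 at 5 h, lower with chaetocin by a log2 difference of −0.75 (95% interval −1.42 to −0.09, adjusted p = 0.332) that was −0.11 with means at the authors' CPM (adjusted p = 0.949), and BLVRA at 12 h, at −0.42 (interval −0.75 to −0.09, adjusted p = 0.141). The intervals at 12 h still allow sizeable differences, from −0.51 to 0.12 for FTL, −0.73 to 0.07 for FTH1 and −0.09 to 0.82 for TFRC.

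Whether an effect had grown between 5 h and 12 h was tested as the interaction of compound and time. It was called for 0 of 8 partners with either compound by limma, where 4.32% of all genes were called for chaetocin and 0.497% for chetomin. Each compound had 1 partner at an unadjusted p under 0.05, against 2993 of 14072 genes for chaetocin and 2888 of 14072 for chetomin. BLVRA with chaetocin had a change in effect of −0.66 (95% interval −1.22 to −0.09, adjusted p = 0.174), and FTL with chetomin of 0.64 (0.05 to 1.24, adjusted p = 0.213). The call of a partner at 12 h and not at 5 h is therefore not a tested difference between the times. HMOX1, described without a test, had a change in effect of 1.37 on the log2 scale with chaetocin and 0.16 with chetomin.

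The differences also followed transcript length. Among all genes with a mean value of at least 5, the median log2 difference at 12 h was 0.1 with chaetocin and 0.27 with chetomin for transcripts under 1000 bases, and −0.51 with chaetocin and −0.49 with chetomin for those over 4000 bases. FTL, with 878 bases, and FTH1, with 1229, are short, and TFRC, with 5111, and ACO1, with 7466, are long. Libraries of the same group differed by length as well: DMSO replicate 1 minus replicate 2 at 5 h ran from 0.44 in the short to −0.4 in the long class. With a smooth trend on length taken out of each library, a fit added after the data were seen, FTL was higher by 0.72 with chaetocin (adjusted p = 0.00274) and 0.87 with chetomin (adjusted p = 0.00163), and FTH1 by 0.49 (adjusted p = 0.0309) and 0.76 (adjusted p = 0.00563). HMOX2 was at −0.70 with chaetocin (adjusted p = 0.0119) and −0.62 with chetomin (adjusted p = 0.02), and BLVRA at −1.01 (adjusted p = 0.00164) and −0.65 (adjusted p = 0.0143). The falls of the long genes were smaller and no longer called against DMSO, at −0.37 with chaetocin and −0.40 with chetomin for ACO1 (adjusted p = 0.113 and 0.123) and −0.39 for TFRC with chetomin (adjusted p = 0.124). Against MeS-chetomin at 12 h the TFRC difference was still called, at −0.64 (adjusted p = 0.0131), and that of ACO1 was not, at −0.31 (adjusted p = 0.0972).

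**Figure D4:**
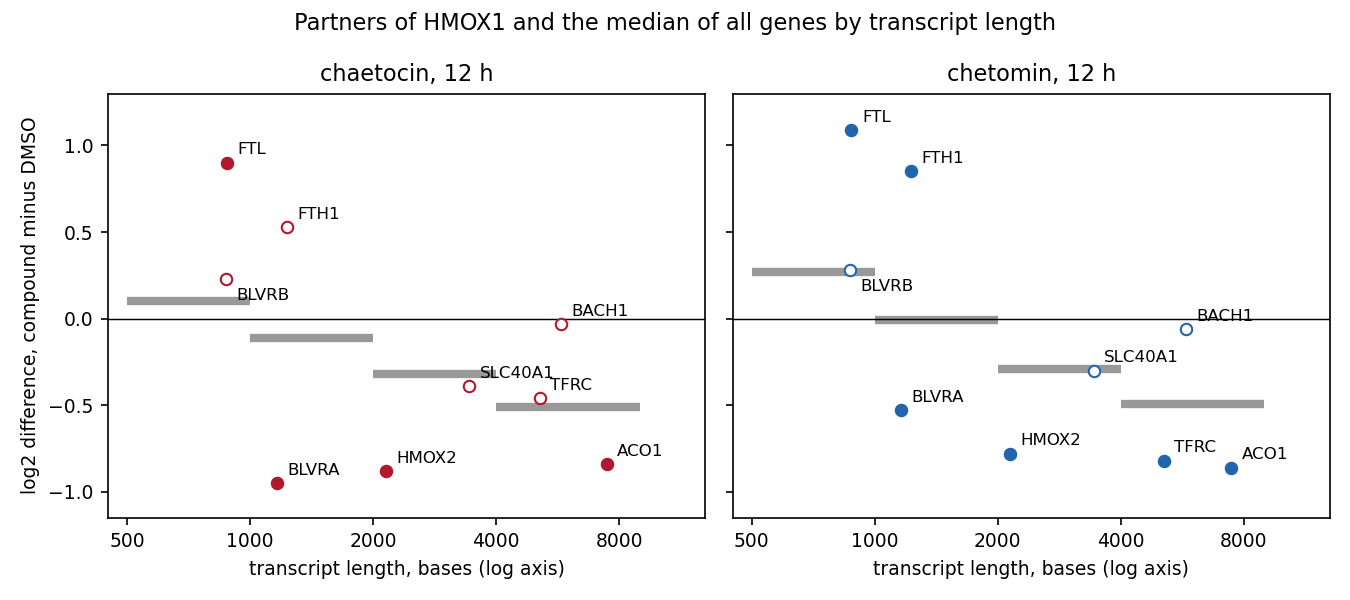
Log2 difference from DMSO at 12 h of the 9 partners against transcript length in bases (log axis), for chaetocin (left) and chetomin (right); grey bars are the median of all genes in 4 length classes and filled points have a limma adjusted p under 0.05. The grey bars step down with length; FTL and FTH1 lie above and HMOX2 and BLVRA below the bars of their class.

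The deposited scale also bears on each fall. The median log2 difference of all genes at 12 h was −0.16 with chaetocin and −0.15 with chetomin on the deposited scale, and the authors' CPM scale moved it by 0.27 and 0.24. Relative to the median of all genes, FTL was higher by 1.05 with chaetocin and 1.24 with chetomin, and FTH1 by 0.69 and 1.00. HMOX2 stood at −0.72 with chaetocin and −0.63 with chetomin relative to that median, BLVRA at −0.79 and −0.38, ACO1 at −0.68 and −0.71, and TFRC with chetomin at −0.67. No called partner changed sign on any scale.

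Around the members, 5 lists of neighbouring genes were counted against DMSO, and the counts read against all genes, of which 20.2% were higher and 26.8% lower with chaetocin and 15.6% higher and 20.2% lower with chetomin at 12 h. With chaetocin at 12 h, 1 of the 12 haem synthesis genes tested was higher and 7 lower, with a list median of −0.50, against −0.16 for all genes. With chetomin 1 was higher and 3 lower, with a list median of −0.37 against −0.15 for all genes, a share of falls near that of all genes. On the authors' CPM scale the balance over all genes turned, with 4359 higher and 2468 lower with chaetocin and 3446 higher and 1575 lower with chetomin. The falls of ABCB10, a mitochondrial transporter, and CLPX, a mitochondrial unfoldase, were then no longer called with chaetocin (adjusted p = 0.0709 and 0.0767), nor that of ABCB10 with chetomin (adjusted p = 0.0618). CPOX, coproporphyrinogen oxidase, had 70.6 and 71.8 in chaetocin and 107.04 and 88.9 in chetomin libraries, against 385.2 and 360.1 in DMSO. CPOX fell by 2.37 on the log2 scale with chaetocin (limma adjusted p = 0.000286) and by 1.92 with chetomin (adjusted p = 0.000204). ALAD, which makes porphobilinogen, fell by 1.01 (adjusted p = 0.0132) and 0.91 (adjusted p = 0.0216), while ALAS1, the rate-limiting enzyme outside red cells, rose by 0.54 with chetomin (adjusted p = 0.0299). ALAS1 had 75.0 and 86.8 in chaetocin and 79.1 and 74.6 in chetomin libraries, against 52.9 and 52.1 in DMSO. ALAD had already fallen at 5 h, by 1.05 with chaetocin (adjusted p = 0.0423, and 0.0563 on the CPM scale) and 1.03 with chetomin (adjusted p = 0.0299).

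Among 12 haem transport genes 1 was higher and 1 lower with each intact compound at 12 h, below the shares of all genes. The 1 higher in both was HPX, haemopexin, which binds free haem, with 2.14 and 1.75 in chaetocin and 5.31 and 4.02 in chetomin libraries, against 0.38 and 0.18 in DMSO. HPX had 0.08 to 0.34 in the analog libraries. Its high values lie in the intact-compound groups alone, through which a low gene comes to be listed, so they are a description with no test.

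The list of iron uptake, release and regulation, 22 genes tested with TFRC, FTL and the other members left out, had 3 higher and 4 lower with chaetocin and 2 higher and 3 lower with chetomin at 12 h, with list medians of −0.19 and −0.21. These counts lie below the shares of all genes in both directions and with both compounds. STEAP3, an endosomal ferrireductase of the transferrin cycle, had 5.45 and 4.76 in chaetocin and 5.27 and 3.8 in chetomin libraries, against 14.1 and 16.8 in DMSO, and fell by 1.43 (adjusted p = 0.00291) and 1.58 (adjusted p = 0.00296). SLC11A2, the ferrous iron transporter DMT1, fell by 1.48 with chaetocin (adjusted p = 0.00292) and by 0.86 with chetomin (adjusted p = 0.0264). FBXL5, the iron-sensing ligase subunit that marks an iron regulatory protein for decay, rose by 1.11 with chetomin (adjusted p = 0.00636). It also rose by 1.07 with chaetocin against MeS-chaetocin at 12 h (limma adjusted p = 0.00643). TF, transferrin, was low, with 1.74 and 2.21 in chaetocin and 1.79 and 2.4 in chetomin libraries, against 0.57 and 0.2 in DMSO, and like HPX is described with no test. TF and HPX are nevertheless in the counts of higher genes of their lists. The mitochondrial iron-sulfur list of 16 genes had 1 higher and 3 lower with each compound, and ISCA2, a late assembly factor, fell by 2.11 with chaetocin (adjusted p = 0.000952) and by 1.39 with chetomin (adjusted p = 0.00266). The 1 higher was HSCB with both, by 1.16 with chaetocin (limma adjusted p = 0.00261) and by 1.09 with chetomin (adjusted p = 0.0046).

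Of 13 regulators that bind with BACH1, compete with it or control it, 5 were higher and 3 lower with chaetocin and 3 higher and 3 lower with chetomin at 12 h, with list medians of 0.03 and −0.19. MAFG, a small MAF partner of BACH1 and NRF2, had 168.3 and 162.8 in chaetocin, 77.0 and 78.4 in chetomin, 32.6 and 28.99 in MeS-chaetocin and 21.9 and 19.02 in MeS-chetomin libraries, against 19.1 and 23.6 in DMSO. MAFG rose by 2.90 on the log2 scale with chaetocin (adjusted p = 0.000314) and by 1.82 with chetomin (adjusted p = 0.000368), and was higher with chaetocin than with chetomin by 1.08 (adjusted p = 0.00509), the reverse of the order of HMOX1. SQSTM1, which frees NRF2 from KEAP1, rose by 1.41 (adjusted p = 0.00258) and 1.35 (adjusted p = 0.00311), and FBXO22, a ligase subunit that marks BACH1 for decay, fell by 1.38 with chaetocin (adjusted p = 0.00131) and by 1.08 with chetomin (adjusted p = 0.00683), a call lost on the CPM scale (−0.47, adjusted p = 0.15). NFE2L2, the gene of NRF2, had 18.95 and 18.2 in chaetocin and 30.07 and 33.2 in chetomin libraries at 5 h, against 47.3 and 58.5 in DMSO, and fell by 1.45 (adjusted p = 0.00812) and 0.72 (adjusted p = 0.0324), the second call lost on the CPM scale (−0.45, adjusted p = 0.149). At 12 h NFE2L2 had 45.2 and 41.9 in chaetocin and 41.0 and 40.0 in chetomin libraries, against 58.05 and 48.8 in DMSO. The chaetocin effect changed between the times by 1.17 (adjusted p = 0.0263), towards a smaller difference from DMSO at 12 h. At 5 h the 5 lists together had 7 calls with chaetocin and 16 with chetomin of 74 genes tested, where 11.1% and 15.7% of all genes were called, and 0 with either analog at either time by limma. At an unadjusted p under 0.05 the analogs had 0 with MeS-chaetocin and 13 with MeS-chetomin of 74 genes at 5 h, and 6 with MeS-chaetocin and 0 with MeS-chetomin of 75 genes at 12 h. Over all genes, in the same order, 105 of 14178 and 2290 of 14184 were under it at 5 h, and 756 of 15215 and 416 of 15197 at 12 h.

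Likeness to HMOX1 was measured as Pearson's correlation, over the 20 libraries, of log2(value + 1) minus the mean of DMSO at the same time, for 10556 genes. It is a description, since the libraries share DMSO means and treatments. The 5 most alike were TMEM44-AS1 (0.986), HSPA6 (0.985), HSPA1B (0.984), XBP1 (0.981) and TUBB3 (0.98). HSPA6, a strictly inducible heat shock protein, averaged 19.4 with chaetocin and 21.9 with chetomin at 12 h, against 0.185 in DMSO. TMEM44-AS1 is an antisense gene and the counting step's strand setting is not stated in the sources used here, and HSPA1B has a near-identical copy, so these values are uncertain. Of the partners FTL was the most like HMOX1 (0.831, rank 487), followed by FTH1 (0.778, rank 684) and BLVRB (0.485), while HMOX2 (−0.851), ACO1 (−0.806), TFRC (−0.74) and BLVRA (−0.674) ran opposite to it.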

How the data were processed

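RNA of 20 libraries was sequenced after poly(A) selection from 250 ng per sample (integrity number 7 or higher), per the labels' protocols. STAR 2.5.2b, RSEM 1.3.3, edgeR without a version and GRCh38 are named per the submitters' processing notes. The 8 deposited tables hold normalized signal per library, the authors' mean CPM per group (signal units), and the authors' log2 fold change, p-value and q-value. Headers name neither the scaling nor the test. All 80 per-library columns were used.

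Limma 3.58.1 (R 4.3.3, with trend) was fitted to log2(value + 1), a scale that understates changes of low genes, with no further filter, in 16 comparisons: 8 with DMSO (4 libraries), 6 between compounds (6 libraries, DMSO included) and 2 of an effect between times (8 libraries). Calls were two-sided, at 0.05 after Benjamini-Hochberg adjustment across every gene of a comparison. An exact permutation test of 2 against 2 cannot go below 0.333. The design assumed counts; the deposited values needed limma. The authors' CPM scale sets each gene's group mean to the authors' mean CPM and is fitted again with limma, so it is not the authors' own test. Other alternatives were a pseudocount of 0.1, a mean value of at least 1, median-of-ratios scaling, shared spread, a replicate block, leaving out each library, and a length trend. The fit was checked on simulated data. The 10 members and the lists were chosen with earlier results of these data known. Named are all members, up to 4 called genes per list and comparison with the largest change, and the 5 genes most like HMOX1. Python 3.11.15, pandas 2.3.3, numpy 2.4.6 and matplotlib 3.10.9 made tables and figures.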

Additional observations from a re-analysis of the deposited data

How the results depend on the processing

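No called partner changed direction. Of 26 calls of a partner in a comparison, 25 were kept at a pseudocount of 0.1, 24 with the replicate block, 22 with the spread shared by all libraries, 16 with median-of-ratios scaling, 16 with the length trend removed (added after the data were seen) and 12 on the authors' CPM scale; with a mean value of at least 1, 24 of 24 were kept and SLC40A1 was not tested. Counts of called partners moved by over 1.5 times as follows, and the cause was not tested. Chetomin against DMSO at 5 h had 0 at a pseudocount of 0.1, with median-of-ratios scaling, with shared spread and with the length trend removed. Over all genes those fits called, in the same order, 2282, 2254 and 2438 of 14219 and 3028 of 14181. Against MeS-chetomin at 5 h chetomin had 1 with median-of-ratios scaling and 0 with shared spread, where 4063 and 3304 of 14222 genes were called. Chetomin against DMSO at 12 h had 3 with median-of-ratios scaling and 2 on the CPM scale, both ferritin chains. Over all genes 4955 and 5021 of 15381 were called there. Chaetocin against MeS-chaetocin at 12 h had 3 with median-of-ratios scaling and 3 with the length trend removed, where 7762 of 15380 and 8029 of 15338 genes were called. Chetomin against MeS-chetomin at 12 h had 5 with each of these and on the CPM scale. Over all genes 6609 of 15381, 6173 of 15339 and 6706 of 15197 were called in these chetomin fits. Chaetocin against chetomin at 12 h had 1, BLVRA, with shared spread, where 1668 of 15381 genes were called. The listed neighbours had 4 calls with chaetocin at 5 h on the CPM scale, and with chetomin 10 with median-of-ratios scaling and 9 on the CPM scale at 5 h and 39 with shared spread at 12 h. Over all genes the fits named for the neighbours called, in the same order, 1370 of 14217, 2254 of 14219, 2197 of 14219 and 7619 of 15381.

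The log2 difference of HMOX1 from DMSO was, with median-of-ratios scaling and on the CPM scale, 4.33 and 4.43 for chaetocin and 5.97 and 6.10 for chetomin at 5 h, 0.05 and 0.09 for MeS-chetomin at 5 h, and 5.78 and 5.93 for chaetocin and 6.21 and 6.35 for chetomin at 12 h.

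Without 1 library each in turn, the counts ran from 0 to 1 for chaetocin, 0 to 5 for chetomin, 0 to 0 for MeS-chaetocin and 0 to 1 for MeS-chetomin against DMSO at 5 h, from 0 to 7 for chetomin against MeS-chetomin at 5 h, from 0 to 7 for chaetocin and for chetomin against DMSO at 12 h, from 2 to 6 for chaetocin and 4 to 9 for chetomin against their analogs at 12 h, and from 0 to 0 in the others; a lone library was assumed to vary like the other groups.

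The replicate numbers showed no steady pairing: the correlation of same-numbered deviations from the group means with those of DMSO ran from −0.6 to 0.76. Replicate differences also followed transcript length, in DMSO and MeS-chaetocin at 5 h among others. These correlations therefore cannot tell whether a number marks a shared culture or batch. With the replicate number as a block the counts were 5 for chaetocin and 5 for chetomin against DMSO, and 4 and 8 against their analogs, at 12 h. Over all genes those fits called 7056 of 15377 and 6228 of 15381, and 7425 of 15380 and 6958 of 15381. With the numbers crossed, chosen after seeing those correlations, chaetocin against DMSO had 3 at 5 h and 7 at 12 h. The crossed fits called 4666 of 14217 genes at 5 h and 9050 of 15377 at 12 h. Depth is unknown for 10 libraries, so values near 0, as for SLC40A1, carry no counting interval.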
